A study of Mus musculus with 18 samples.

Results

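The transcription factors that establish and hold B cell identity were followed through B cell differentiation in mice with and without Dnmt3a and Dnmt3b, the enzymes that place new DNA methylation. The set holds 10 genes of the 21761 in the expression table, namely Pax5, Ebf1, Bach2, Spib, Ets1, Ikzf1, Ikzf5, Pou2f2, Tcf3 and Irf8. They were listed by name, and Ebf1, Pou2f2 and Ikzf5 were chosen by their measured difference between genotypes in bone marrow plasma cells, so for these 3 genes that difference is described and not tested. All 10 genes passed the filter on low values, which kept the 11522 genes above 1 FPKM (fragments per kilobase of exon, scaled to the reads on genes of the library) in at least 2 of the 18 libraries. Pax5 and Spib passed it through libraries of naive and germinal center B cells alone.

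The 18 RNA-seq libraries came from mice of a mixed B6;129S4 background that all carried Dnmt3a fl/fl and Dnmt3b fl/fl alleles, in which loxP sites flank only the exons of the catalytic domains. Dnmt3-deficient mice also carried 1 allele of a Cre that is active in the B lineage, with recombination reached by the pre-B stage, and Dnmt3-sufficient controls were littermates without Cre. All mice were 8 to 12 weeks old at the start. Naive follicular B cells (nB, B220+ GL7- Fas-) were sorted from lymph nodes of unimmunized mice. Germinal center B cells (GCB, B220+ GL7+ Fas+ and binding phycoerythrin) and CD138+ bone marrow plasma cells (BMPC) were sorted 30 days after immunization with phycoerythrin in complete Freund's adjuvant, and each GCB library pooled 2 mice. Each of the 6 groups held 3 libraries, of both sexes, and 5000 cells were sorted per library.

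Pax5, Ebf1 and Tcf3 (the gene of the E2A proteins) form the core circuit that commits progenitors to the B lineage, and Pax5 keeps mature B cells committed while it holds back genes of other lineages. Ikzf1, Ets1, Spib, Irf8, Pou2f2 (Oct-2) and Bach2 act in mature B cells, and Bach2, Ets1 and Pax5 are known as brakes on plasma cell differentiation. Plasma cells turn on Prdm1 (Blimp-1) and Xbp1, and Blimp-1 is a known repressor of Pax5 and Spib.

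Reads on genes numbered between 6692516 and 8987922 per nB or GCB library and between 1355231 and 3803197 per BMPC library. The median SD of a gene between replicates, in log2(FPKM + 1), lay between 0.27 and 0.41 in the nB and GCB groups and between 0.78 and 0.82 in the BMPC groups, which carried the widest error. The marker lists followed the labels: germinal center markers summed to between 1037 and 1143 FPKM in GCB against at most 83.5 FPKM elsewhere, and plasma cell markers to between 18915 and 51504 FPKM in BMPC against at most 1520 FPKM elsewhere. Markers of early B cells also stood out in BMPC, where 7 of the 8 had reads in some library and their sum was 381 to 660.5 FPKM, against 3.2 to 28.5 FPKM in nB and 0.2 to 1.7 FPKM in GCB. Dntt, the terminal transferase of B cell progenitors, gave 305 to 581 FPKM of that sum, and Erg was at 0 in all 6 BMPC libraries. Dnmt3a and Dnmt3b were at most 5.18 and 9.29 FPKM in any library, and their ranges overlapped between genotypes except for Dnmt3b in GCB, where Dnmt3-deficient libraries were higher (0.744 to 1.10 against 0 to 0.676 FPKM). A value over the whole gene does not check the removal of single exons.

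Pax5 and Spib were the members that left no read in plasma cells. Pax5 (Entrez 18507, chr4:44544017-44724318 on mm9, minus strand), a paired-box factor, was 47.7, 54.1 and 55.9 FPKM in the Dnmt3-sufficient nB libraries and 64.9, 57.2 and 52.6 FPKM in the Dnmt3-deficient ones. In GCB it was 18.3, 15.9 and 12.6 FPKM in Dnmt3-sufficient and 18.5, 18.1 and 21.6 FPKM in Dnmt3-deficient libraries, and in BMPC it was 0 in all 6. The 3 cell types did not overlap and stood in the order nB, GCB, BMPC. Against a floor of 3 reads per library, Pax5 was at least 48.1-fold lower in BMPC than in nB and at least 15.2-fold lower than in GCB. The exon length deposited for Pax5 was 1208 bases, the shortest of the members and less than the 3424 bases of its merged exons in the GENCODE M1 annotation, so the same number of reads gave a higher floor for it than for the other members.

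Spib (Entrez 272382, chr7:51781365-51787441, minus strand), the Ets-family factor Spi-B, did not follow Pax5 in the germinal center. It ranged from 90.3 through a median of 124 to 204 FPKM in nB and from 93.2 through 106 to 256 FPKM in GCB, so nB and GCB overlapped. In BMPC it was again 0 in all 6 libraries, at least 265-fold lower than in nB and at least 264-fold lower than in GCB. Spib is also a factor of plasmacytoid dendritic cells. Of their 5 listed markers, Bst2 (76.2 to 153 FPKM) and Tcf4 (6.06 to 36.9 FPKM) had reads in all 6 BMPC libraries. Ccr9 had reads in 5 of them, Siglech in 4 (up to 39.7 FPKM) and Klk1 in none. In nB, Siglech (22.6 to 115 FPKM), Ccr9 (1.40 to 13.4 FPKM) and Klk1 (1.88 to 8.57 FPKM) had reads in all 6 libraries. In GCB, Siglech and Ccr9 had reads in 1 library each and Klk1 in none. The sum of the 5 markers was 89.2 to 200 FPKM in BMPC, 125 to 274 FPKM in nB and 35.5 to 76.3 FPKM in GCB. The part of such cells in the level of Spib was not tested.

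Ebf1 (Entrez 13591, chr11:44430819-44821593, plus strand), the early B cell factor, fell in steps as Pax5 did. It ranged from 94.5 through a median of 116 to 137 FPKM in nB and from 42.9 through 51.6 to 64.2 FPKM in GCB, and the ranges did not overlap. In BMPC it was 0, 0 and 0.578 FPKM in the Dnmt3-sufficient libraries and 1.82, 7.10 and 0 FPKM in the Dnmt3-deficient ones. All 6 BMPC libraries thus lay below every GCB library, on 0 to 55 reads each.

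The stretches just upstream of the start sites of these genes are shown because DNA methylation, the reaction the deleted enzymes carry out, falls on the cytosine of CG pairs. They are the 250 bases before the first RefSeq start site of Pax5 and Spib, which were at 0 in BMPC, and of Ebf1, Pou2f2 and Ikzf5, which were listed for their difference between genotypes there, from RefSeq on build GRCm38.p6 and on the strand of the gene, with each CG pair in capitals.
Pax5, chr4:44710695-44710944: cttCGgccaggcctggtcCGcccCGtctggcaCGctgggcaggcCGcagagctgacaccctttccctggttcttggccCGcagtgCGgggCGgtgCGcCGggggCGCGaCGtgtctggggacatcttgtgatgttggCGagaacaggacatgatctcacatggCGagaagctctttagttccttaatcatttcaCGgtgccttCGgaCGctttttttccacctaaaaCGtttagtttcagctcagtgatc
Spib, chr7:44532072-44532321: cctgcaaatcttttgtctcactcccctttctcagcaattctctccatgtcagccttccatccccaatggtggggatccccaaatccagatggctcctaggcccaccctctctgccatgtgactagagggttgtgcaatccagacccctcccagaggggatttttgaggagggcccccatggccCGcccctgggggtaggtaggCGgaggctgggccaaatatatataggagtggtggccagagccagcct
Ebf1, chr11:44617850-44618099: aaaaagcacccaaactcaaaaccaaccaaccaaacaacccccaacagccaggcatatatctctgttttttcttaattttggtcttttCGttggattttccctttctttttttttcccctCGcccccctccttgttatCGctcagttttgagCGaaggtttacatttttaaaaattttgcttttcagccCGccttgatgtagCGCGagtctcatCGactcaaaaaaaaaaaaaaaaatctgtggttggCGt
Pou2f2, chr7:25132461-25132710: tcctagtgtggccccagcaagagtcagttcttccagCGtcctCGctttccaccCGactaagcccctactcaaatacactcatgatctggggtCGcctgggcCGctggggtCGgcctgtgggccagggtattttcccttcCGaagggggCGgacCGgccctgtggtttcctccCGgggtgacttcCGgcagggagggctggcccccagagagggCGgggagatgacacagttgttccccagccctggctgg
Ikzf5, chr7:131410479-131410728: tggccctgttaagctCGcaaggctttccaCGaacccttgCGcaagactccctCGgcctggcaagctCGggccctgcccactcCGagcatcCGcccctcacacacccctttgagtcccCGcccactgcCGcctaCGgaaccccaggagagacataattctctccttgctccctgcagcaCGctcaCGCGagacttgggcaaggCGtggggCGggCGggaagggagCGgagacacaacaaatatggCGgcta

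Pax5 held 19 CG pairs in this stretch, Ikzf5 18, Pou2f2 12, Ebf1 9 and Spib 2, against a median of 6 over all 32851 promoters of the table. Pax5 thus had more than 80.3% of promoters and Spib more than 18.8%. Methylation of these stretches was not examined here. Of the 10 members, 9 had an entry, with 12 start sites in all. The same stretches were searched on both strands for the letters that factors of these families are known to bind, of which CCGGAAG and GAGGAAGT share GGAAG. The Ets core CCGGAAG, found in 6.91% of all promoters, stood in those of Bach2, Pou2f2 and Tcf3. The interferon regulatory letters GAAANNGAA, found in 7.13%, stood in the printed promoter of Ebf1, and the E box CACCTG, found in 17.2%, stood at the second start site of Irf8. The letters CCCNNGGG of early B cell factors, found in 11.8%, stood in the promoters of Spib and Ikzf1. Of the member promoters, 0 held the E box CAGCTG (13.0% of all promoters), the octamer ATGCAAAT (1.601%) or the Ets letters GAGGAAGT (2.44%), which says only that these letters are not in these windows.

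The remaining members fell into groups by their levels across the cell types. Pou2f2 (Entrez 18987, chr7:25877472-25917507, minus strand) and Ets1 (Entrez 23871, chr9:32443806-32565405, plus strand) stepped down from nB to GCB to BMPC with no overlap between neighbours. Pou2f2, an octamer-binding factor, ranged from 19.3 through a median of 24.5 to 32.2 FPKM in nB and from 8.95 through 9.76 to 16.4 FPKM in GCB. In BMPC it was 0.979, 0.495 and 0 FPKM in the Dnmt3-sufficient libraries and 2.80, 3.17 and 2.61 FPKM in the Dnmt3-deficient ones. Ets1 was the most abundant member in nB, at 187 through a median of 210 to 280 FPKM, and ranged from 55.9 through 96.5 to 163 FPKM in GCB. In BMPC it was 0.426, 41.5 and 3.26 FPKM in the Dnmt3-sufficient and 21.0, 27.7 and 0.894 FPKM in the Dnmt3-deficient libraries, the widest spread of any member among plasma cells of the same genotype.

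T cells also make Ets1, and the T cell marker sum in the same 6 libraries was 55.4, 178 and 147 FPKM in the Dnmt3-sufficient and 118, 156 and 198 FPKM in the Dnmt3-deficient ones. The library with the lowest Ets1 had the lowest T cell sum, but that with the highest T cell sum had only 0.894 FPKM of Ets1. Cd3e ranged from 0 to 35.0 FPKM over these libraries and Cd3g from 24.5 to 112 FPKM, against at most 0.11 FPKM for Cd4 and 0.50 FPKM for Cd8a. The sort excluded cells that bound antibodies to CD90.2, the product of Thy1, which itself was at 0 to 9.36 FPKM with reads in 4 of the 6 libraries. Their part in the level of Ets1 was not tested.

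Bach2 (Entrez 12014, chr4:32325779-32673083, plus strand) and Irf8 (Entrez 15900, chr8:123260258-123280594, plus strand) overlapped between nB and GCB and lay lower in BMPC. Bach2, a repressor of Prdm1, ranged from 11.5 through a median of 15.8 to 26.5 FPKM in nB and from 11.01 through 15.01 to 19.3 FPKM in GCB. In BMPC it was 1.52, 1.603 and 0 FPKM in Dnmt3-sufficient and 0.120, 0.653 and 0.0434 FPKM in Dnmt3-deficient libraries. Irf8, an interferon regulatory factor that acts in B cells and in myeloid cells, ranged from 61.7 through 75.6 to 96.7 FPKM in nB and from 39.0 through 49.9 to 89.5 FPKM in GCB. It kept a low level in every BMPC library, at 5.33, 5.59 and 4.95 FPKM in Dnmt3-sufficient and 5.55, 8.02 and 0.945 FPKM in Dnmt3-deficient cells.

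Ikzf1, Ikzf5 and Tcf3 differed least between nB and BMPC. Ikzf1 (Entrez 22778, chr11:11585006-11672929, plus strand), the zinc finger factor Ikaros, ranged from 27.7 through 39.0 to 45.5 FPKM in nB and from 45.9 through 54.2 to 65.0 FPKM in GCB, so GCB lay just above nB. In BMPC it ranged from 4.02 through 16.4 to 27.9 FPKM, which overlapped nB by a narrow margin, and with a mean of 15.9 FPKM it was level with Ets1 (15.8 FPKM) as the most abundant member there. Tcf3 (Entrez 21423, chr10:79872259-79896392, minus strand) was the lowest member in nB, at 2.61 through 4.94 to 6.75 FPKM, and was higher in GCB, at 9.06 through 9.97 to 14.8 FPKM. In BMPC it ranged from 0.173 through 1.84 to 2.74 FPKM and overlapped nB. Ikzf5 (Entrez 67143, chr7:138532166-138554035, minus strand), the Ikaros-family factor Pegasus, ranged from 7.63 through 13.5 to 17.99 FPKM in nB and from 5.36 through 8.86 to 12.7 FPKM in GCB. In BMPC it was 2.07, 0 and 1.32 FPKM in Dnmt3-sufficient and 19.9, 17.1 and 8.95 FPKM in Dnmt3-deficient libraries, of which the latter were within the range of nB but for 1 library above it. The spans of other annotated genes cross exons of Pax5, Bach2, Ikzf1, Ikzf5 and Irf8, and reads from overlapping genes could not be told apart where strand was not used.

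**Figure D1:**
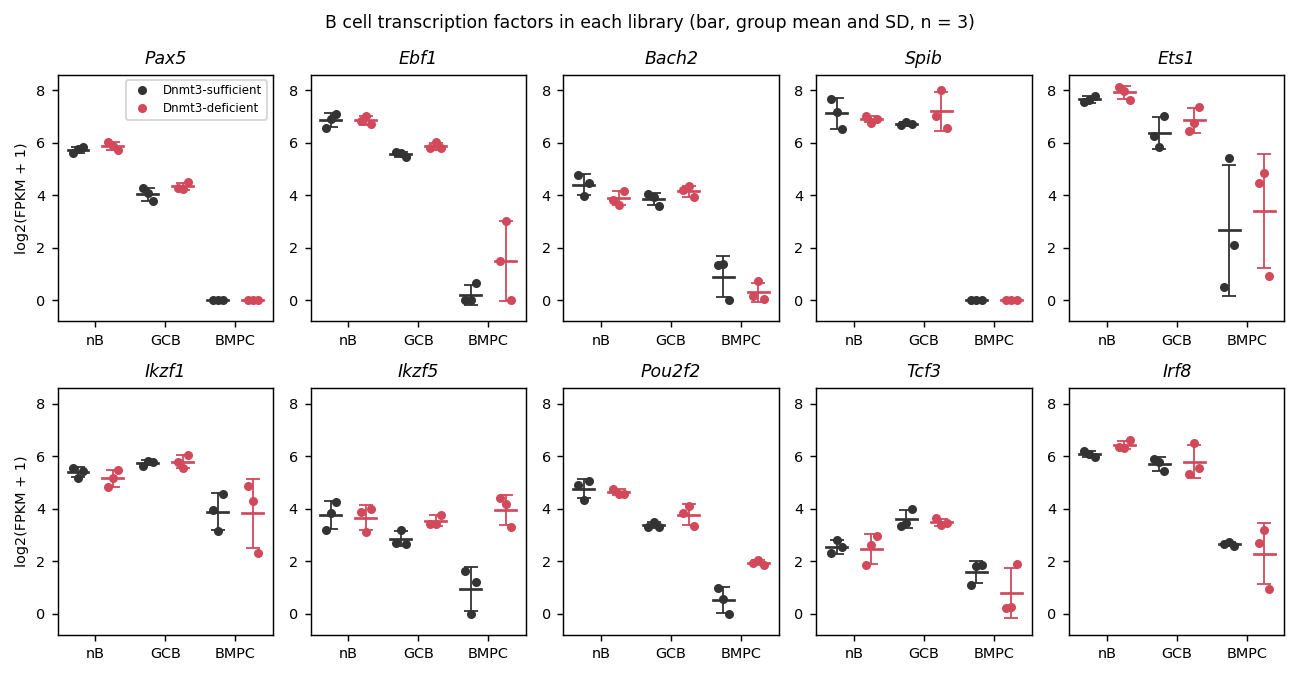
Levels of the 10 transcription factors as log2(FPKM + 1) in each of the 18 libraries, by cell type on the horizontal axis and by genotype in colour (black, Dnmt3-sufficient; red, Dnmt3-deficient), with the mean and SD of 3 libraries. Pax5 and Spib sit at 0 in all 6 BMPC libraries, and the genotypes overlap in most panels, with Ikzf5 and Pou2f2 in BMPC apart.

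To determine which members changed between cell types, the genotypes were averaged and each difference was tested with limma over all 11522 genes, with a call at an adjusted p up to 0.05 if the change reached 1 in log2(FPKM + 1). That scale understates the change of genes near 0. Pax5 and Spib were kept by the filter only through nB and GCB libraries, so they had to lie lower in BMPC, and their differences from nB of -5.81 for Pax5 and -7.01 for Spib are given with no test. The other 8 members would have been kept by the BMPC libraries alone, as were 8724 of the tested genes. Of these, Ebf1 and Pou2f2 were above 1 FPKM only in Dnmt3-deficient BMPC libraries. They were thus kept through the genotype difference by which they were chosen. Between BMPC and nB, all 8 of the 8 members so kept fell, where 32.4% of the 8724 genes fell by the same rule. The median change of the 8 was -3.50, beside -0.67 over the 8724 genes. The change was -5.999 ± 0.37 for Ebf1 (SE, n = 6 libraries per cell type throughout, adjusted p = 8.14e-10) and -4.75 ± 0.63 for Ets1 (adjusted p = 1.04e-05). It was -3.79 ± 0.43 for Irf8 (adjusted p = 1.53e-06), -3.54 ± 0.41 for Bach2 (adjusted p = 2.42e-06) and -3.46 ± 0.39 for Pou2f2 (adjusted p = 1.75e-06). In mean FPKM, Ebf1 was 73.4-fold lower in BMPC, or 242-fold without Dnmt3-deficient replicate 2. Bach2 was 26.4-fold lower, Pou2f2 and Irf8 15.1-fold each, and Ets1 14.1-fold. These 5 members did not overlap between nB and BMPC, as did 15.9% of the 8724 genes with lower values in BMPC. In bulk RNA, fewer cells that hold a transcript and less transcript per cell cannot be told apart. BMPC came from bone marrow of immunized mice and nB from lymph nodes of unimmunized mice. Cell type thus cannot be told apart from tissue or immunization. The BMPC libraries were 4 male and 2 female, and the nB libraries 2 male and 4 female.

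The other 3 members had smaller changes, of -1.42 ± 0.37 for Ikzf1 (adjusted p = 0.00417), -1.31 ± 0.46 for Tcf3 (adjusted p = 0.0266) and -1.25 ± 0.45 for Ikzf5 (adjusted p = 0.0305). Relative to the median of all genes, their changes were -0.63, -0.52 and -0.46, whereas that of Pou2f2 was -2.67. The call for Tcf3 was lost without BMPC Dnmt3-sufficient replicate 1 (adjusted p = 0.0808), Dnmt3-deficient replicate 1 (0.0795) or Dnmt3-deficient replicate 2 (0.0706), and that for Ikzf5 without BMPC Dnmt3-sufficient replicate 2 (0.102) or Dnmt3-deficient replicate 3 (0.0932). Ikzf5 was 0.31 higher in BMPC than in nB among Dnmt3-deficient libraries alone, and this direction rests on the genotype difference by which it was chosen.

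**Figure D2:**
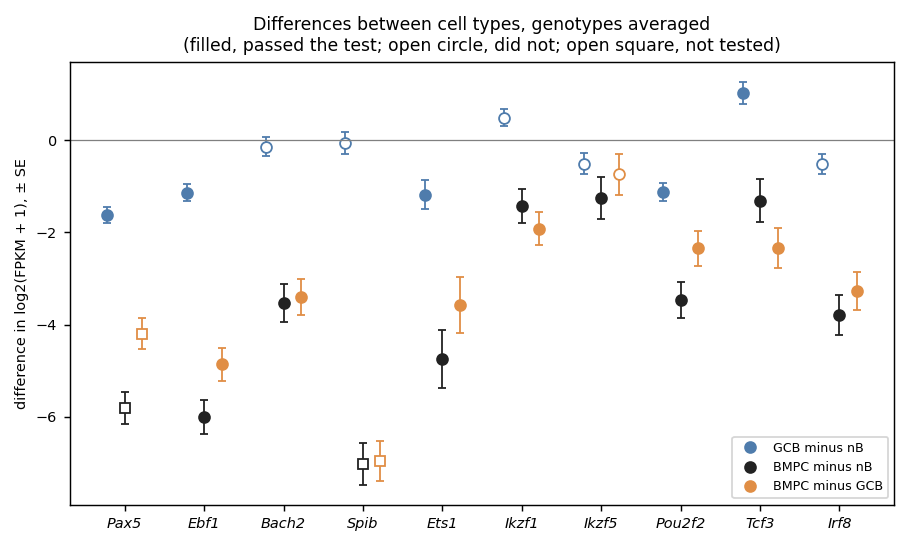
Differences between cell types for each member in log2(FPKM + 1), with the SE of the fit, for GCB minus nB (blue), BMPC minus nB (black) and BMPC minus GCB (orange). Filled points passed the test, open circles did not, and open squares (Pax5 and Spib in BMPC) were not tested. Spib, Ebf1 and Pax5 lie lowest in BMPC, at -7.01, -5.999 and -5.81 against nB.

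Between GCB and nB, 5 of 10 members passed the test, where 28.8% of all tested genes did. Of these, 4 fell, as did 16.6% of all genes. The changes were -1.62 ± 0.17 for Pax5 (adjusted p = 3.41e-07), -1.18 ± 0.32 for Ets1 (adjusted p = 0.00553), -1.14 ± 0.19 for Ebf1 (adjusted p = 5.96e-05) and -1.12 ± 0.20 for Pou2f2 (adjusted p = 0.000142). In mean FPKM these were 3.17-fold, 2.17-fold, 2.23-fold and 2.26-fold lower in GCB, with no overlap between the cell types (14.4% of all genes lay lower in GCB without overlap). Tcf3 rose by 1.03 ± 0.23 (adjusted p = 0.00134), a 2.21-fold higher mean, among 12.2% of genes that rose. The germinal center thus held less Pax5 and Ebf1 and more of Tcf3, the third gene of the core circuit. The changes of Spib (-0.06 ± 0.23) and Bach2 (-0.14 ± 0.21) were within their error, and those of Ikzf1 (0.49 ± 0.19, adjusted p = 0.0371), Irf8 (-0.51 ± 0.22, adjusted p = 0.0592) and Ikzf5 (-0.51 ± 0.23, adjusted p = 0.0763) stayed under the size a call needed.

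The rise of Tcf3 fell just under that size without nB Dnmt3-sufficient replicate 1 (0.97), nB Dnmt3-deficient replicate 1 (0.87), GCB Dnmt3-sufficient replicate 3 (0.93) or GCB Dnmt3-deficient replicate 1 (0.99), and the fall of Ets1 was not called when the libraries were given equal weight (adjusted p = 0.243) or in Dnmt3-sufficient libraries alone (adjusted p = 0.0608). Germinal center libraries were made 30 days after immunization and nB libraries from unimmunized mice, so cell type and immunization cannot be told apart.

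Between BMPC and GCB, 7 of the 8 members that the BMPC libraries alone would have kept fell, where 30.0% of such genes did. The change was -4.86 ± 0.36 for Ebf1, -3.57 ± 0.61 for Ets1 (adjusted p = 0.000141), -3.40 ± 0.40 for Bach2 and -3.28 ± 0.41 for Irf8. The other members that passed were Pou2f2 (-2.34 ± 0.38), Tcf3 (-2.34 ± 0.44) and Ikzf1 (-1.92 ± 0.35). These 7 lay lower in every BMPC library than in any GCB library, as did 15.3% of such genes. The differences of Spib (-6.96) and Pax5 (-4.19) are again given with no test. Ikzf5 changed by -0.74 ± 0.43 (adjusted p = 0.186), close to the median of all genes of -0.66. BMPC came from bone marrow and GCB from lymph nodes, so cell type and tissue cannot be told apart. The comparisons share libraries, so they do not bear on each other as separate evidence.

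The genotypes were then compared within each cell type. In nB, 0 of 10 members passed the limma test (0.0868% of all genes did), 0 had an unadjusted p under 0.05, and 0 passed with voom on reads recovered from the FPKM, as was the case for voom in GCB and BMPC too. Differences ran from -0.52 ± 0.34 for Bach2 to 0.35 ± 0.35 for Irf8. Irf8 was 72.1, 66.9 and 61.7 FPKM in the Dnmt3-sufficient nB libraries and 81.3, 79.2 and 96.7 FPKM in the Dnmt3-deficient ones. It was the 1 member whose ranges did not overlap there, as did 4.66% of all genes with higher values in Dnmt3-deficient cells.

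In GCB the members leaned to higher values in Dnmt3-deficient cells, but again 0 of 10 passed the limma test (0.0174% of all genes did). An unadjusted p under 0.05 was found for 1 member, as for 6.33% of all genes. The difference was above 0 for 9 of 10, the exception being Tcf3 (-0.11 ± 0.28), with a median of 0.31 over the members and of 0 over all genes. The members share the same 6 libraries, so this count is not one of independent differences. Ikzf5 was 5.55, 8.08 and 5.36 FPKM in Dnmt3-sufficient and 9.78, 9.64 and 12.7 FPKM in Dnmt3-deficient GCB, a difference of 0.69 ± 0.28 (unadjusted p = 0.023, adjusted p = 0.69). Ebf1 was 48.9, 47.5 and 42.9 FPKM against 54.9, 64.2 and 54.2 FPKM, a difference of 0.31 ± 0.23 (adjusted p = 0.924). In both genes the 3 Dnmt3-deficient libraries lay above the 3 Dnmt3-sufficient ones, as they did for 5.58% of all genes. Spib was 100.2, 109 and 103 FPKM against 130, 256 and 93.2 FPKM, so that its difference of 0.48 ± 0.28 (adjusted p = 0.855) came with overlapping ranges and 1 high Dnmt3-deficient library.

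In BMPC, 0 of the 7 members not listed for this difference passed the limma test (0.148% of all genes did), and 0 had an unadjusted p under 0.05. Of these 7, Pax5 and Spib had no reads in BMPC and could not have passed. Differences of the 7 ran from -0.79 ± 0.84 for Tcf3 to 0.74 ± 1.15 for Ets1, so the error in plasma cells would hide changes of this size. Pax5 and Spib, at 0 reads in all 6 libraries, showed no difference that could be detected above 3 reads, which were worth 0.65 to 1.83 FPKM for Pax5 and 0.28 to 0.79 FPKM for Spib.

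The 3 members listed for their difference in BMPC are described without a test. Ikzf5 was higher by 3.02 in Dnmt3-deficient BMPC on the log2(FPKM + 1) scale, with means of 15.3 ± 5.7 and 1.13 ± 1.05 FPKM (SD, n = 3) from 334 and 41 reads in all. Pou2f2 was higher by 1.42, with means of 2.86 ± 0.29 and 0.491 ± 0.489 FPKM from 55 and 15 reads, and its Dnmt3-deficient level stayed below every nB and GCB library. Both genes separated the genotypes in every library, as did 3.02% of all genes with higher values in Dnmt3-deficient BMPC. Ebf1 was higher by 1.29 but overlapped, since it rested on 55 and 17 of the 72 reads in 2 Dnmt3-deficient libraries and had 0 in the other. The mean of Ikzf5 in Dnmt3-deficient BMPC was thus within the range of nB, while those of Ebf1 (2.97 FPKM) and Pou2f2 were below every nB library.

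**Figure D3:**
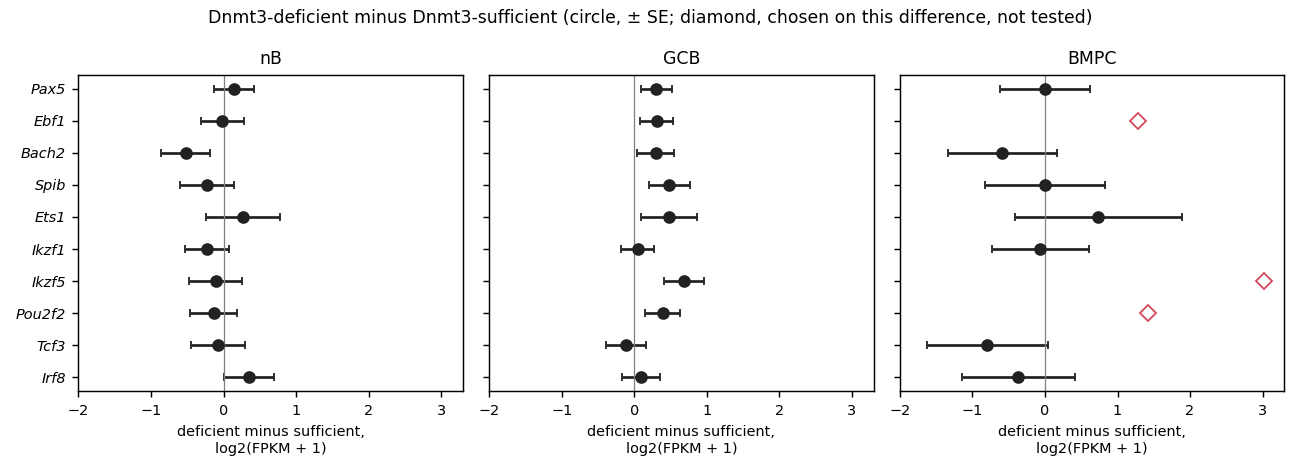
Dnmt3-deficient minus Dnmt3-sufficient difference of each member in log2(FPKM + 1), in nB, GCB and BMPC. Circles show the estimate with its SE, and diamonds mark the 3 genes listed for their difference in BMPC, at 1.29 for Ebf1, 3.02 for Ikzf5 and 1.42 for Pou2f2, which were not tested.

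Whether the genotype difference itself differed between cell types was tested with interaction terms, and 0 of 10 members passed for GCB against nB (0.026% of all genes did, and 0 members had an unadjusted p under 0.05) and 0 of the 7 tested passed for BMPC against nB (0.104% of all genes did, and 0 members were under 0.05). Pax5 and Spib are counted in the 7, but without reads in BMPC their BMPC term only mirrored their difference in nB. The largest GCB interaction was that of Bach2 (0.82 ± 0.42, adjusted p = 0.929), which was 26.5, 14.7 and 21.2 FPKM in Dnmt3-sufficient nB, 13.3, 11.5 and 17.0 FPKM in Dnmt3-deficient nB, and 15.5, 14.5 and 11.01 against 17.5, 19.3 and 14.2 FPKM in GCB. The ranges of the genotypes overlapped for Bach2 in both cell types.

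Markers of other cells were set beside the listed genes in the plasma cell libraries. Ebf1 is also a factor of B cell progenitors, and early B markers summed to 417, 381 and 660.5 FPKM in Dnmt3-sufficient and to 392, 617 and 432 FPKM in Dnmt3-deficient BMPC. The library with the most Ebf1, Dnmt3-deficient replicate 2, also had the most Rag2 (34.8 FPKM) and Vpreb1 (55.7 FPKM), genes of recombining progenitors, but Rag1 was 0 and Il7r only 7.56 FPKM there. Il7r (36.0 FPKM) and Cd93 (87.3 FPKM) were highest in Dnmt3-deficient replicate 3, where Ebf1 was 0. The library with the highest early B sum, Dnmt3-sufficient replicate 3, had Rag2 at 14.0, Vpreb1 at 16.9 and Ebf1 at 0.578 FPKM. Mature B markers summed to 662 to 974.9 FPKM in Dnmt3-sufficient and 736.1 to 951 FPKM in Dnmt3-deficient BMPC, nearly all of it Cd79b (649 to 968 FPKM), with Cr2 at 0 in all 6 libraries and Cd22 at 0 in 5. Neutrophil markers ranged from 63.4 to 526 FPKM and from 9.4 to 595 FPKM, and erythroid markers from 1473 to 2893 FPKM and from 181 to 1157 FPKM, in Dnmt3-sufficient and Dnmt3-deficient BMPC respectively. Erythroid sums thus separated the genotypes. Plasma cell marker sums did so too, at 18915 to 29493 FPKM in Dnmt3-sufficient and 33952 to 51504 FPKM in Dnmt3-deficient BMPC. Most of these sums was Jchain, at 16189 to 25611 FPKM and 29771 to 46609 FPKM. Mzb1 was also higher in every Dnmt3-deficient library. Irf4 was lower in each, at 14.5, 0.315 and 27.9 FPKM against 37.3, 55.2 and 44.1 FPKM. Sdc1, Prdm1 and Xbp1 overlapped between genotypes. Since FPKM is a share of all reads on genes, such sums bear on the values of other genes. The macrophage marker sum was higher in all 3 Dnmt3-deficient libraries (98.4 to 227 FPKM) than in the Dnmt3-sufficient ones (60.0 to 87.7 FPKM), and of its 5 genes Cd68 alone separated them (98.4, 158 and 145 against 44.7, 87.6 and 40.5 FPKM). C1qa was at 0 in every BMPC library, Adgre1 had reads in 1, Csf1r in 2, and Lyz2 was 0 in 1 library of each genotype. The sort also excluded cells that bound antibodies to CD11b, CD11c or Ly6-G, proteins of myeloid cells. The part of such cells in the levels of Ebf1, Ikzf5 and Pou2f2 was not tested.

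**Figure D4:**
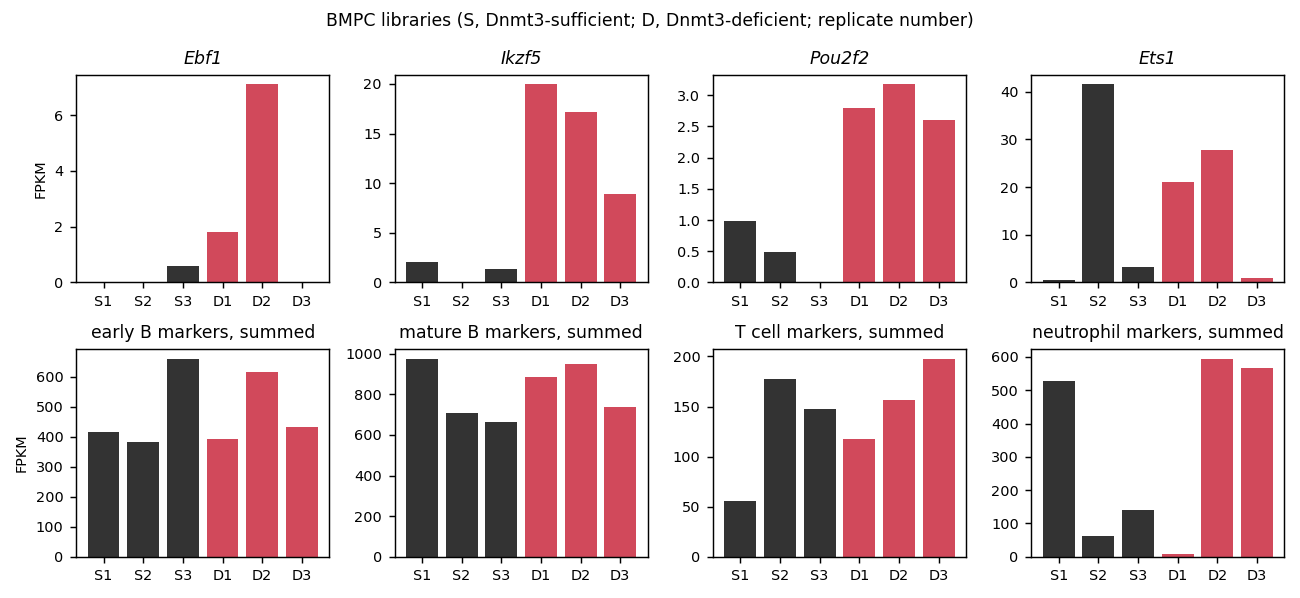
FPKM in each of the 6 BMPC libraries (S, Dnmt3-sufficient; D, Dnmt3-deficient; number, replicate) of Ebf1, Ikzf5, Pou2f2 and Ets1 in the upper row and of summed markers of early B, mature B, T cells and neutrophils in the lower row. Ikzf5 and Pou2f2 are higher in every Dnmt3-deficient library, Ebf1 is highest in replicate 2 (7.10 FPKM), and these 4 marker sums overlap between genotypes.

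Most genes on a chosen list that Pax5 and Ebf1 are known to act on were lower in plasma cells. The list does not cover all their targets. Of 18 such target genes, 14 would have been kept by the BMPC libraries alone, and of these 10 fell and 0 rose from nB to BMPC (32.4% and 11.6% of such genes fell and rose), with a median change of -3.67 beside -0.67. These shares also count genes that passed the filter only through BMPC libraries and so had to lie higher there. The change was -7.41 ± 0.52 for Ms4a1, which encodes CD20. The other 4, kept only through nB and GCB libraries, are given with no test: Fcer2a, the low-affinity IgE receptor CD23, was 664 ± 74 FPKM in nB and 1.13 ± 2.78 FPKM in BMPC (SD, n = 6), and differed by -8.87. Cd22, an inhibitory co-receptor, differed by -8.22, and Cr2, a complement receptor, and Ciita, the activator of MHC class II genes, were at 0 in every BMPC library. Blnk, Fcrla, Vpreb3 and Cd24a did not pass.

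From nB to GCB, 9 of the 18 targets fell and 1 rose, where 16.6% and 12.2% of all genes did (median -0.99, beside -0.13 over all genes). The change was -3.79 ± 0.24 for Fcer2a, -2.18 ± 0.19 for Cr2 and -1.196 ± 0.16 for Cd22, while Ms4a1 changed by 0.14 ± 0.27 (adjusted p = 0.708) and stayed at 615 ± 100.1 FPKM in GCB. Between genotypes 0 of 18 targets passed the limma test in nB, in GCB or in BMPC, and 0 passed with voom. Cr2 and Ciita, at 0 in every BMPC library, could not have passed in BMPC. At an unadjusted p under 0.05 there were 0 targets in nB, 3 in GCB (Cd55 and Cd72 among them) and 6 in BMPC, where 5.41%, 6.33% and 7.55% of all genes had such a p. Among those in BMPC the difference was 2.98 ± 1.01 for Blk (adjusted p = 0.417), 1.896 ± 0.81 for Cd40 and 1.13 ± 0.39 for Fcrla, but -1.17 ± 0.48 for Vpreb3 and -0.93 ± 0.37 for Cd24a.

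**Figure D5:**
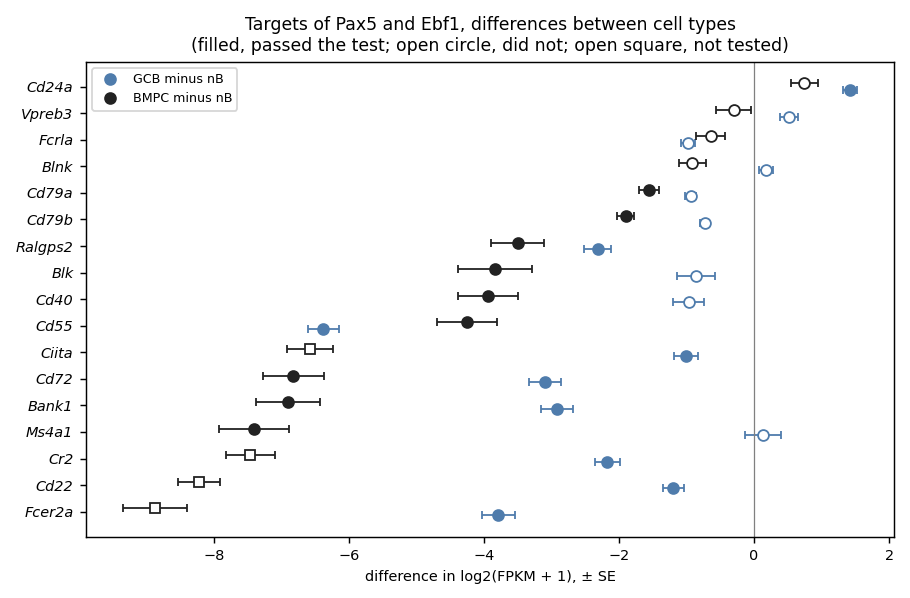
Differences in log2(FPKM + 1), with the SE, for 17 of the 18 targets of Pax5 and Ebf1 in GCB minus nB (blue) and BMPC minus nB (black), ordered by the latter. Filled points passed the test, open circles did not and open squares were not tested. In BMPC 9 of the 13 tested targets passed as lower, from -1.56 for Cd79a to -7.41 for Ms4a1, and the 4 squares reach -8.87 (Fcer2a).

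Among 22 other transcription factors of the B lineage, 20 were tested. From nB to GCB 4 fell and 3 rose, close to the 16.6% and 12.2% of all genes (median 0.0025, beside -0.13). Of the 17 that the BMPC libraries alone would have kept, 8 fell and 2 rose from nB to BMPC, where 32.4% and 11.6% of such genes did (median -1.01, beside -0.67). As above, those shares count genes that had to lie higher in BMPC. Id3, an inhibitor of the E proteins that Tcf3 encodes, was 281 ± 33 FPKM in nB and 2.47 ± 6.05 FPKM in BMPC, with reads in 1 BMPC library, and is given with no test. Its relative Id2 rose by 3.57 ± 0.39 from nB to BMPC, from 13.6 ± 6.6 to 163 ± 41 FPKM, and had already risen by 2.31 ± 0.20 in GCB. Foxp1, a forkhead factor of mature B cells, fell by 3.56 ± 0.37, and Myb, a factor of progenitors, rose by 2.89 ± 0.59, from 1.58 ± 1.18 to 19.8 ± 15.03 FPKM. Among 4 factors listed for plasma cells, Xbp1 rose by 4.90 ± 0.47, from 25.1 ± 11.8 to 702.4 ± 97.6 FPKM. Irf4 (-0.43) and Zbtb20 (-0.80) did not pass. Prdm1, kept only through BMPC libraries and so given with no test, was 0.190 ± 0.289 FPKM in nB and 16.3 ± 16.3 FPKM in BMPC. Between genotypes, 0 of the 20 and 0 of the 4 passed in any of the 3 cell types with limma or voom. At an unadjusted p under 0.05 there were Etv6 and Fli1 in GCB and Foxp1 and Irf4 in BMPC among the 20. Among the 4 there were Xbp1 in GCB and Irf4 in BMPC, Irf4 being on both lists. Etv6 and Fli1 were higher in Dnmt3-deficient cells, and Foxp1, Irf4 and Xbp1 lower. Over all genes, 6.33% in GCB and 7.55% in BMPC had such a p.

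The likeness of 2 genes was measured as the mean absolute difference between their log2(FPKM + 1) values over the 18 libraries, each centred on its own mean, where 0 would be an identical pattern. Among the members, Bach2 and Irf8 were the most alike pair (0.48), followed by Pax5 and Ebf1 (0.52), and Spib and Ikzf5 were the least alike (2.66). Of all tested genes, Neurl3, Tlr1 and Sorl1 were nearest to Pax5 (0.26 to 0.28), and Ablim1, March1 and Ciita, itself a target on the list, were nearest to Ebf1 (0.38 to 0.46). Spib was nearest to Ell3, Lta and Cd22 (0.30 to 0.57), all absent or nearly so from BMPC. Bach2 was nearest to Setdb2, Coro1a and Inpp5d (0.27 to 0.34), and Irf8 to Ptprc, Tnfrsf13c and Inpp5d (0.29 to 0.33). Pou2f2 was nearest to Arhgap30, Stat3 and Cd37 (0.31 to 0.38). Ets1, with its wide spread in BMPC, had no gene closer than 0.52 (Dennd1c, then Atg16l2 and Cmtr1). Tcf3 was nearest to Cfl1, Eno1 and Eno1b (0.27 to 0.30), of which the last pair are near-identical copies whose reads may have been divided by the counting. Ikzf1 was nearest to Nono, Nup214 and Rnps1 (0.30 to 0.32), and Ikzf5 to Tia1, Sp4 and Gramd3 (0.38 to 0.44).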

How the data were processed

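RNA-seq of 18 libraries (nB, GCB and BMPC, each Dnmt3-sufficient and Dnmt3-deficient, n = 3) was analysed. The authors aligned paired-end reads to mm9 with TopHat, keeping single hits, counted them over exons of UCSC KnownGenes with GenomicAlignments, and deposited FPKM per gene (the submitters' processing notes name edgeR 3.12.1 and R 3.2.2). Use of strand in counting is not given in the sources used here. The deposited table also held 54 columns of the authors' own comparisons (fold changes, mean levels, p-values and call flags), which were not used. FPKM times exon length gave whole reads in every library (within 0.01 of a read), so depth is known, and 92 genes without a symbol had no name to print. FPKM is relative to total reads on genes and so moves with the share that a few abundant genes take.

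Limma 3.58.1 (R 4.3.3) was fitted to log2(FPKM + 1) with a mean for each of 6 groups over all 18 libraries, an intensity trend, and a weight estimated for each cell type (nB 1.41, GCB 2.51, BMPC 0.283), two-sided, with Benjamini-Hochberg adjustment over the 11522 genes above 1 FPKM in at least 2 libraries. The script was tested on simulated data. Differences to BMPC were read as tests only for genes that did not pass the filter only through the cell types where they were high, and counts of lower genes are over the 8724 genes above 1 FPKM in at least 2 BMPC libraries, a choice made after seeing the data. These 8724 include genes that passed only through BMPC libraries and so had to lie higher there. Groups came from the labels. No 2 replicates were alike within sampling noise (lowest chi-square per degree of freedom 22.3). Nothing in the labels gives separate cultures or days, so p-values measure the spread between these libraries, 1 mouse each for nB and BMPC and 2 pooled mice for GCB. Floors and counts of reads cover counting error only.

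The members, marker lists and gene lists were chosen with earlier results of these data known. The text names all 10 members, from each list at most the 4 genes with the largest change that passed in BMPC minus nB plus 1 target gene that is counted in its list but not reported here, and the 3 genes most like each member. Genes named outside that rule (markers, list genes that did not pass, the targeted genes) were named after their values were seen. Promoters are from RefSeq (GRCm38.p6), and gene positions on mm9 are from GENCODE M1.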

Additional observations from a re-analysis of the deposited data

How the results depend on the processing

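Each alternative changed the pseudocount, filter, scaling, weights, libraries, covariate or unit. Of the values of single members, 1400 kept direction and side of the threshold, 19 lost a call, 0 gained one and 51 changed sign. The 1400 hold values of Pax5 and Spib in every BMPC comparison, but neither had a read there. Members called numbered 7 to 10 between BMPC and nB, 8 or 9 between BMPC and GCB, and 3 to 5 between GCB and nB, with 3 in Dnmt3-deficient libraries alone, where Ebf1 (-0.98) and Pou2f2 (-0.86) missed the size for a call. The first 2 counts include Pax5 and Spib, which had to lie lower in BMPC. Without 1 library these counts were 9 or 10, 9, and 4 or 5, and no genotype comparison or interaction called a member under any of them. That does not show the genotypes to be alike, since BMPC libraries varied most (weight 0.283). Median of ratios scaling moved the median of all genes from -0.79 to -0.71 in BMPC minus nB and from -0.66 to -0.53 in BMPC minus GCB, and with it Ikzf5 in BMPC minus nB was not called (adjusted p = 0.0625), nor Tcf3 in GCB minus nB (a change of 0.98). Ikzf1 in BMPC minus nB was not called in Dnmt3-deficient libraries alone (adjusted p = 0.11). Tcf3 there was called in neither genotype alone (adjusted p = 0.284 sufficient, 0.0999 deficient). Ets1 in BMPC minus GCB was not called with voom (adjusted p = 0.118). The cause of these losses was not tested.

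Over all genes, calls between genotypes in BMPC numbered 17, against 459 without a variance weight, 45 without a filter, 29 with the pseudocount of 0.1, 11 with a filter of FPKM over 3 in 3 libraries, 8 with voom, 0 with BMPC libraries alone and 14 to 47 without 1 library. In nB the 10 became 29 (pseudocount), 20 (no filter), 6 (no weight), 5 (stricter filter) and 3 (nB libraries alone), with 12 to 21 without 1 library. In GCB the 2 became 8 (pseudocount), 5 (no filter or sex covariate), 4 (voom or block), 3 (weight per library) and 0 (no weight, or GCB libraries alone), with 4 to 14 without 1 library. The interaction calls of 12 for BMPC became 64 (no weight), 33 (no filter), 18 (pseudocount) and 3 (voom), with 9 to 36 without 1 library, and the 3 for GCB became 10 (no filter), 2 (pseudocount, sex covariate or block), 1 (stricter filter or weight per library) and 0 (no weight, voom, or these cell types alone), with 1 to 7 without 1 library. The calls between cell types in a single genotype were 2945 and 2960 of 4870 (BMPC minus nB) and 2421 and 2641 of 4233 (BMPC minus GCB).

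The GCB titles of both genotypes carry the same replicate tags, and libraries that share a tag are of the same sex. Their deviations from the group means correlated at -8.06e-05, -0.017 and 0.026. With so few libraries per group, these values cannot decide whether libraries that share a tag were paired. With the replicate block 0 members passed in GCB and 0 in the GCB interaction, Ikzf5 keeping a difference of 0.69 in GCB (adjusted p = 0.737), and the block changed no call of a member.

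Signs changed as follows, in log2(FPKM + 1). In Dnmt3-deficient libraries alone, GCB minus nB was 0.27 for Bach2 and 0.30 for Spib, and Ikzf5 was 0.31 in BMPC minus nB and 0.42 in BMPC minus GCB. With a weight per library, the genotype difference of Irf8 in GCB was -0.018 and the GCB interaction of Tcf3 was 0.12. With median of ratios scaling that of Ikzf1 in BMPC was 0.098. With voom the interaction was 0.0053 for Tcf3 in GCB, and 0.73 for Pax5 and -0.047 for Ikzf1 in BMPC. Pax5 and Spib had no read in any BMPC library, so their BMPC interaction values measure no difference in BMPC. Leaving out 1 library at a time, GCB minus nB of Spib ranged from -0.26 to 0.10. The genotype difference in nB ranged from -0.16 to 0.11 for Ebf1, -0.54 to 0.045 for Spib, -0.39 to 0.16 for Ikzf5, -0.35 to 0.0053 for Pou2f2 and -0.32 to 0.23 for Tcf3. In GCB it ranged from -0.080 to 0.17 for Ikzf1, -0.25 to 0.080 for Tcf3 and -0.27 to 0.32 for Irf8, and in BMPC from -0.34 to 2.11 for Ets1, -0.58 to 0.68 for Ikzf1 and -0.82 to 0.29 for Irf8. The GCB interaction ranged from -0.054 to 0.54 for Ets1 and -0.35 to 0.20 for Tcf3. The BMPC interaction ranged from -0.52 to 0.17 for Bach2, -0.045 to 0.54 for Spib, -0.61 to 1.84 for Ets1 and -0.36 to 0.91 for Ikzf1. The causes of these changes of sign were not tested.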
